A study of Homo sapiens with 10 samples.

Results

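The 8 genes described here encode RAS-family proteins and 3 proteins that act on them directly. HRAS, NRAS, RRAS, RRAS2 and MRAS encode small GTPases, RASA1 and NF1 encode GTPase-activating proteins, and SOS1 encodes a nucleotide exchange factor. They were chosen by symbol, and all 8 were found among the 26256 genes of the first count table and among the 55736 genes of the second. All libraries came from MCF10A, an immortalized, nontransformed human mammary epithelial line grown with EGF, insulin and hydrocortisone. The first table holds untreated parental MCF10A cells (n = 2) and G12V cells (n = 2), which are MCF10A cells that received HRas with valine in place of glycine at codon 12. The second holds parental MCF10A cells given 10 µM Nutlin-3a (n = 3) or its vehicle DMSO (n = 3) for 4 h. Nutlin-3a blocks the binding of MDM2 to p53. The oncogene was delivered by viral transduction together with a GFP vector and selected with hygromycin. Whether the G12V cells were 1 clone or a pool, and whether the parental cells carried a control vector, was not given in the sources used here.

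A RAS protein is active when it holds GTP and inactive when it holds GDP. Exchange factors such as SOS1 load it with GTP after growth factor receptors are engaged, and GTPase-activating proteins such as RASA1 and neurofibromin, the product of NF1, speed up GTP hydrolysis. Active RAS binds effectors such as the RAF kinases and phosphatidylinositol 3-kinase. A change of the glycine at codon 12 blocks the action of the GTPase-activating proteins and leaves RAS in the active form.

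The 5 GTPases differ in how closely they resemble HRAS. Over the 189 residues aligned with HRAS in the proteins translated from GENCODE release 44 coding sequences on GRCh37 (hg19), NRAS was 85.2% identical to HRAS, RRAS2 55.6%, RRAS 55.0% and MRAS 52.4%.

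Total counts were 21538593 and 23683975 in MCF10A, 22070837 and 23318848 in G12V, 16402941 to 17378734 in DMSO and 15453226 to 16756691 in Nutlin-3a libraries. Of 8 epithelial markers (CDH1, EPCAM, TP63 and 5 keratins), 6 were called lower in G12V cells, beside 855 of all 14376 genes tested. KRT18 and KRT8 were not called, with log2 fold changes of -0.71 and 0.18. The summed level of the 8 was 6856 to 8415 CPM (counts scaled to the normalized library size) in MCF10A and 1363 to 1662 CPM in G12V cells. KRT5 alone had means of 4195 and 1078 CPM. Of 12 markers of leukocytes, endothelium, fibroblasts and red cells, 4 could be tested and 1 (CD68) was called higher, beside 5.01% of all genes. The summed levels were 21.7 to 26.1 CPM in MCF10A and 44.6 to 81.5 CPM in G12V cells. CD68 alone had 12.1 to 12.3 CPM in MCF10A and 37.3 to 72.7 CPM in G12V cells. COL1A1, PECAM1 and PDGFRB had log2 fold changes of -1.14, 0.35 and 0.42 and were not called. COL3A1 and HBB had no count, and PTPRC, CD3E and COL1A2 had at most 1 in any of these libraries. The part of these markers in the results below was not tested. In bulk libraries a change in the make-up of the culture and a change of RNA per cell cannot be told apart.

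The first comparison asked how expression differed between G12V and parental cells. A gene is called when edgeR's quasi-likelihood test gives it an adjusted p under 0.05 and its log2 fold change lies beyond 0.5 in either direction. Of the 8 genes, HRAS was called higher, none was called lower and 7 were not called. Of all 14376 genes tested, 11.0% were called and 5.01% were called higher. The other 7 genes had log2 fold changes of -0.65 to 0.15 with a median of -0.24, beside a median of -0.0011 and a median absolute value of 0.36 over all genes tested.

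HRAS (chr11:532242-535550, minus strand), the introduced gene, had 72.6 and 65.9 CPM in MCF10A replicates 1 and 2 and 631 and 515 CPM in G12V replicates 1 and 2. Both G12V libraries stood far above both MCF10A libraries, and the G12V libraries differed from each other by a ratio of 1.23. In counts, 1598 and 1496 reads became 14753 and 11542. The level was 8.27-fold higher in G12V cells (95% confidence interval 5.63 to 12.1), a log2 fold change of 3.05 with a standard error of 0.23 (adjusted p = 0.00165, edgeR's quasi-likelihood test). HRAS ranked 3532nd of the tested genes by CPM in MCF10A and 213th in G12V cells. By log2 fold change it ranked 221st, and 95.8% of the tested genes had a smaller absolute change. The counts hold reads of the endogenous and the introduced HRAS together, so the share of each is unknown. Without MCF10A replicate 1 the log2 fold change was 3.15 and the adjusted p was 0.0775 in edgeR's quasi-likelihood test, with 0 genes called in the whole table. HRAS was called without each of the other libraries in turn. Each omission leaves 1 group with 1 library, which is assumed to vary like the other group, so these calls say little about stability.

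**Figure D1:**
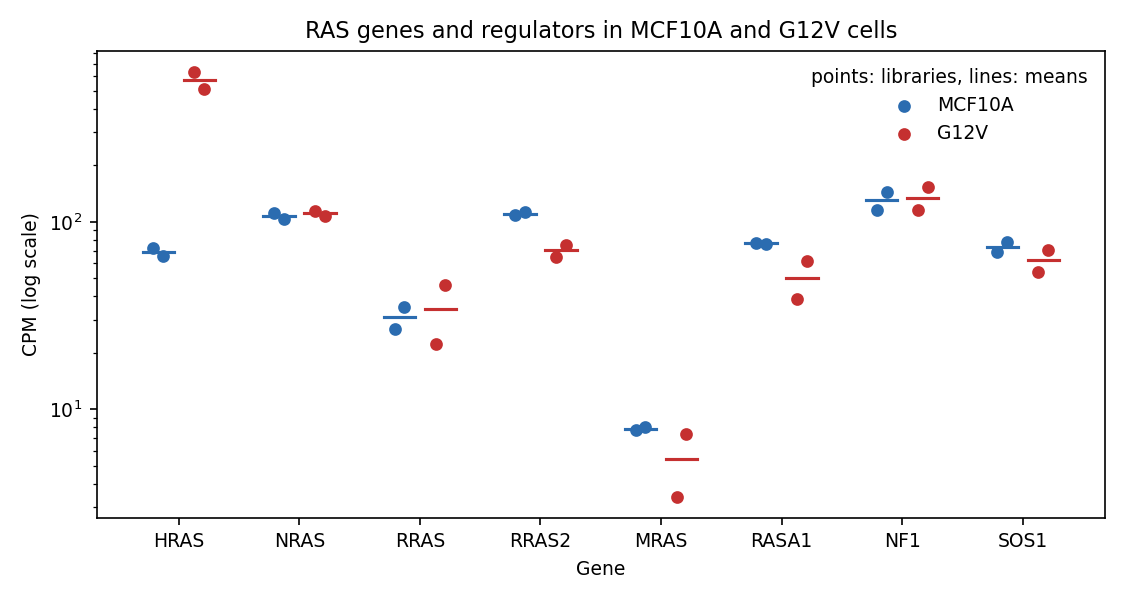
CPM of the 8 genes on a log scale in the 2 MCF10A and the 2 G12V libraries, with points for libraries and lines for group means. HRAS rose from 65.9 to 72.6 CPM in MCF10A to 515 to 631 CPM in G12V cells, while RRAS2, MRAS and RASA1 lay lower in both G12V libraries than in both MCF10A libraries and the other 4 genes overlapped.

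No tested gene next to HRAS on chromosome 11 was called higher, beside 5.01% of all genes tested. Within 50 kb there were 9 other genes, none overlapping HRAS, and 8 could be tested. Of these 1 was called lower, beside 855 of all 14376 genes tested. The 8 had log2 fold changes of -1.62 to 0.91 with a median of -0.11. LRRC56, the nearest at 1972 bp, stood at 1.45 ± 0.38 CPM in MCF10A and at 1.05 ± 0.15 CPM in G12V cells (SD, n = 2 each). The ribonuclease inhibitor gene RNH1 had a log2 fold change of 0.15 and the phosphatidylserine synthase gene PTDSS2 one of 0.00067. LMNTD2 fell by 1.62 on the log2 scale (SE 0.36, adjusted p = 0.0429, edgeR's quasi-likelihood test), from 5.25 ± 0.48 to 1.71 ± 0.42 CPM. RASSF7, which encodes a RAS-association domain protein, had a log2 fold change of -1.04 (adjusted p = 0.128, edgeR's quasi-likelihood test), and PHRF1, LOC143666 and MIR210HG had -0.22, 0.20 and 0.91.

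**Figure D2:**
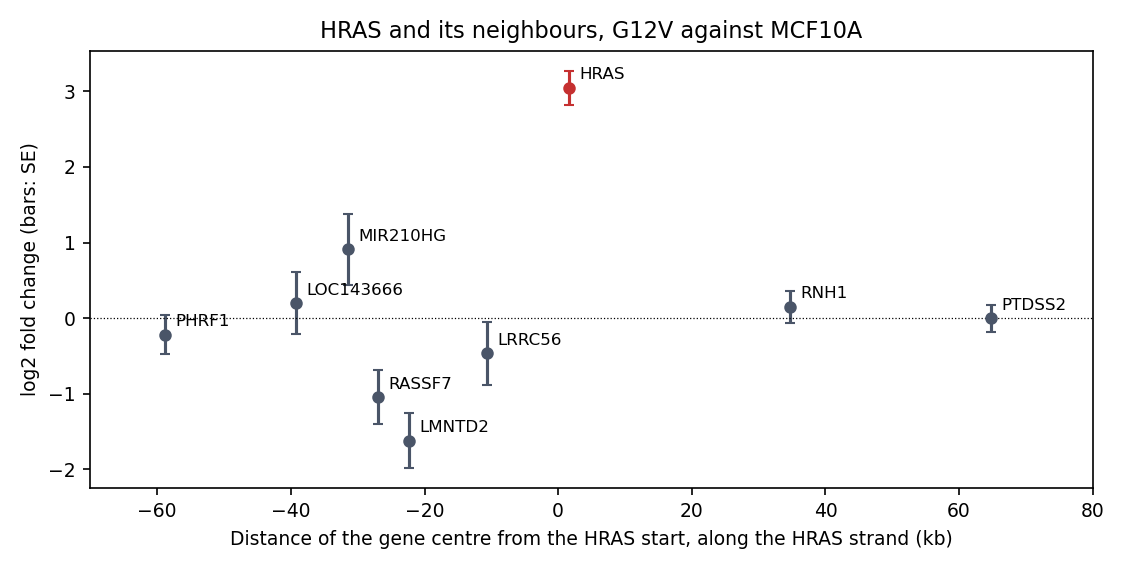
Log2 fold change of HRAS and the 8 tested genes within 50 kb, with standard errors, against the distance in kb of each gene's centre from the HRAS start along its strand. HRAS stands at 3.05, and its neighbours lie between -1.62 (LMNTD2) and 0.91 (MIR210HG).

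The genes whose profile was most like that of HRAS over the 4 libraries were found by the Euclidean distance between mean-centred log2 CPM, among 9547 genes with at least 10 CPM on average. ADAM12, a metalloprotease gene, was nearest at a distance of 0.13, with 15.6 and 12.7 CPM in MCF10A and 137 and 106 CPM in G12V cells. DAGLA, a diacylglycerol lipase gene, followed at 0.22 and ZC3H12A, an RNase gene, at 0.30. DAGLA had 2.18 and 2.16 CPM in MCF10A and 18.0 and 17.9 CPM in G12V cells. It thus passed the floor of 10 CPM only through the G12V libraries. With 4 libraries in 2 groups, this distance mostly ranks genes by their difference between the groups.

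NRAS (chr1:115247085-115259515, minus strand), the closest relative of HRAS among these genes, had 112 and 103 CPM in MCF10A and 114 and 108 CPM in G12V cells. The groups overlapped, and the log2 fold change was 0.05 (95% confidence interval -0.37 to 0.46, adjusted p = 0.914, edgeR's quasi-likelihood test). There were 0.649 and 0.640 HRAS counts per NRAS count in MCF10A and 5.53 and 4.78 in G12V cells.

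RRAS2 (chr11:14299466-14386052, minus strand), which encodes TC21, had 108 and 113 CPM in MCF10A and 65.2 and 75.7 CPM in G12V cells. The groups did not overlap, yet the log2 fold change of -0.65 (SE 0.18, 95% confidence interval -1.08 to -0.22) did not pass the test (unadjusted p = 0.0102, adjusted p = 0.0721, edgeR's quasi-likelihood test). HRAS and RRAS2 were the 2 of the 8 genes with an unadjusted p under 0.05, beside 25.6% of all genes. edgeR's exact test called RRAS2 at an adjusted p of 0.0378 and DESeq2 did not (adjusted p = 0.0509). Of the 8 genes the exact test called HRAS and RRAS2, beside 17.6% of all genes, and DESeq2 called HRAS, beside 16.0%.

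RRAS (chr19:50138549-50143400, minus strand), which encodes a GTPase known for its role in integrin adhesion, had 26.7 and 35.2 CPM in MCF10A and 22.4 and 46.3 CPM in G12V cells. The G12V libraries lay on either side of both MCF10A libraries and differed from each other by a ratio of 2.07. MRAS (chr3:138066490-138124377, plus strand), whose product acts with SHOC2 on the RAF kinases, was the lowest of the 8, at 7.73 and 8.02 CPM in MCF10A and 3.42 and 7.40 CPM in G12V cells. Its G12V libraries were both lower but differed by a ratio of 2.16, and the log2 fold change of -0.54 had a standard error of 0.42 (adjusted p = 0.505, edgeR's quasi-likelihood test). RRAS had a log2 fold change of 0.15 (SE 0.37).

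RASA1 (chr5:86564070-86687743, plus strand), which encodes p120 RasGAP, had 77.1 and 76.5 CPM in MCF10A and 38.8 and 61.8 CPM in G12V cells. Both G12V libraries were lower, and the log2 fold change was -0.61 (SE 0.26, 95% confidence interval -1.23 to 0.01, adjusted p = 0.205, edgeR's quasi-likelihood test). Without G12V replicate 2 it was -0.99 with an adjusted p of 0.0491 by the same test of edgeR, and without G12V replicate 1 it was -0.31. The first of these p-values takes its spread from the 2 MCF10A libraries, which agreed closely for RASA1.

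NF1 (chr17:29421945-29704695, plus strand), the neurofibromatosis type 1 gene, had 115 and 145 CPM in MCF10A and 115 and 153 CPM in G12V cells. The groups overlapped almost fully, with a log2 fold change of 0.04 (SE 0.23, 95% confidence interval -0.51 to 0.60). Partial copies of NF1 elsewhere in the genome can take or lend reads, so its counts are uncertain. EVI2A and EVI2B lie inside NF1 on the opposite strand, and since the strand setting of the counting is not given, they may share reads with NF1. EVI2B stood at 23.3 ± 6.73 CPM in MCF10A and at 37.4 ± 10.4 CPM in G12V cells (SD, n = 2 each), and EVI2A had 6.72 ± 1.34 and 9.87 ± 4.46 CPM, neither of them called.

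SOS1 (chr2:39208690-39347604, minus strand) had 69.1 and 78.5 CPM in MCF10A and 54.0 and 70.6 CPM in G12V cells. The groups overlapped, and the log2 fold change was -0.24 (SE 0.21, 95% confidence interval -0.75 to 0.26). Over the 8 genes, the groups did not overlap for HRAS, which was higher, and for RRAS2, MRAS and RASA1, which lay lower. Over all genes tested, 54.8% did not overlap and 27.4% did so with G12V lower.

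Levels of different genes were compared per length, as CPM per kilobase of the representative transcript in GENCODE. In MCF10A the order was HRAS (64.7 ± 4.45, SD, n = 2), RRAS2 (47.1), RRAS (31.4), NRAS (24.8), RASA1 (16.2), NF1 (10.5), SOS1 (8.29) and MRAS (1.92), and no neighbours in this order had overlapping libraries. In G12V cells HRAS stood at 535 ± 76.7 CPM per kilobase (SD, n = 2). RRAS followed at 34.8, RRAS2 at 30.1, NRAS at 25.6, NF1 at 10.8, RASA1 at 10.6, SOS1 at 7.00 and MRAS at 1.32. The RRAS libraries (22.7 to 47.0) spanned those of both RRAS2 (27.8 to 32.3) and NRAS (24.9 to 26.4). RRAS thus did not differ from either beyond the spread of the libraries, and likewise NF1 and RASA1 did not differ. HRAS made up 40.2 and 36.0% of the summed level per length of the 5 GTPases in MCF10A and 88.3 and 81.9% in G12V cells. How much of the endogenous transcript the introduced HRAS covers is not given, so its level per length and share in G12V cells are uncertain. With the length of all exons in place of the representative transcript, a choice made after the data were seen, the shares were 26.6 and 23.2% against 79.7 and 70.2%. RRAS2 then came before HRAS, and SOS1 before NF1, in MCF10A. The libraries of SOS1 and NF1 overlapped there, and those of RRAS overlapped RRAS2, HRAS and NRAS. In G12V cells NRAS (25.6) then came before RRAS2 (20.4), and RASA1 (9.61) before NF1 (3.26), each without overlap.

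**Figure D3:**
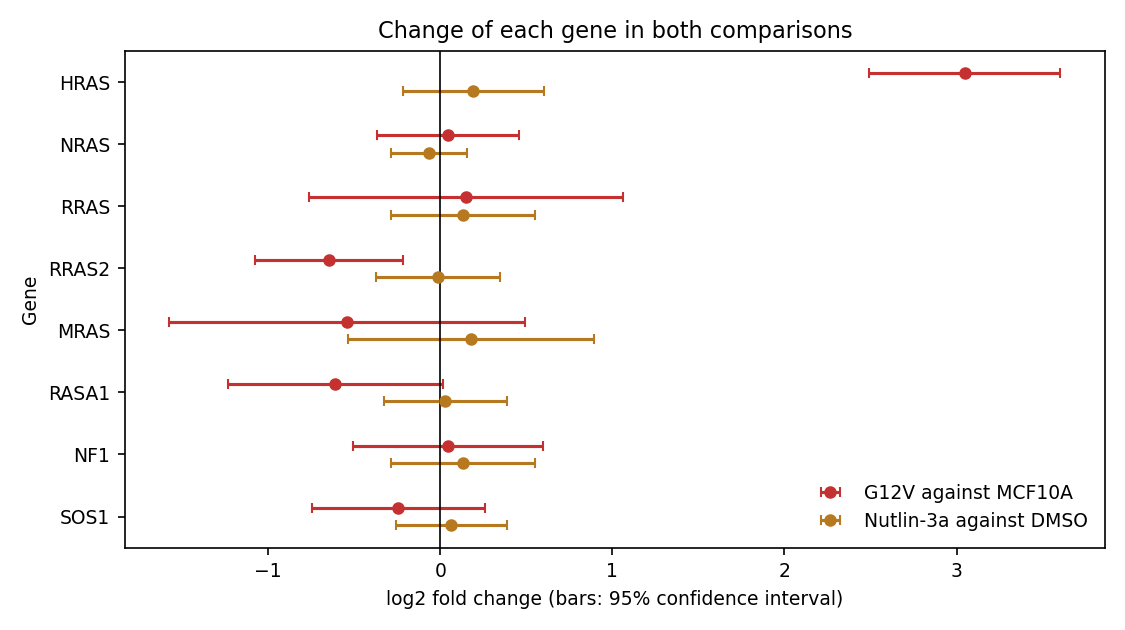
Log2 fold change of each of the 8 genes with its 95% confidence interval, for G12V against MCF10A and for Nutlin-3a against DMSO. Both fits leave out the replicate number. The interval of HRAS in G12V cells runs from 2.49 to 3.60 and that of RRAS2 from -1.08 to -0.22, while every interval after Nutlin-3a includes 0.

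A wider set of 68 genes around RAS was read in 6 lists, and 56 could be tested. Of these 3 were called higher and 4 lower in G12V cells, which is 12.5% beside the 11.0% of all genes, and their median log2 fold change was -0.14. None of the 4 tested exchange factors was called. RASGRP1 had the largest absolute log2 fold change of that list, at 2.65, from levels under 1 CPM (adjusted p = 0.0556, edgeR's quasi-likelihood test), and SOS2, the close relative of SOS1, had -0.45.

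Of the 7 tested GTPase-activating proteins, 1 was called higher and 1 lower, beside 11.0% of all genes called. RASA3 had 24.7 and 26.3 CPM in MCF10A and 55.8 and 68.8 CPM in G12V cells. It rose by 1.29 on the log2 scale, with a standard error of 0.20 (adjusted p = 0.0144, edgeR's quasi-likelihood test). DAB2IP, which encodes a RAS GTPase-activating protein known as a tumour suppressor, had 120 and 140 CPM in MCF10A and 31.2 and 32.2 CPM in G12V cells. This was a fall of 2.03 on the log2 scale, with a standard error of 0.18 (adjusted p = 0.00306, edgeR's quasi-likelihood test). In neither gene did the groups overlap, as was so for 54.8% of all genes tested.

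Of the 10 adaptors and partners of the regulators, all tested, 1 was called higher and 1 lower, beside 11.0% of all genes called. SPRED3, of a family whose members bring neurofibromin to the membrane, had 2.73 and 2.82 CPM in MCF10A and 13.9 and 12.5 CPM in G12V cells (log2 fold change 2.25, SE 0.29, adjusted p = 0.00780, edgeR's quasi-likelihood test). GAB1, a docking protein of receptor kinases, had 17.2 and 25.4 CPM in MCF10A and 6.16 and 9.10 CPM in G12V cells (log2 fold change -1.48, SE 0.33, adjusted p = 0.0413, edgeR's quasi-likelihood test). The adaptor gene GRB2, whose product carries SOS1 to activated receptors, had 140 and 122 CPM in MCF10A and 210 and 202 CPM in G12V cells. It was not called in the main test (log2 fold change 0.65, adjusted p = 0.0796, edgeR's quasi-likelihood test). DESeq2 and edgeR's exact test called it, beside 16.0% and 17.6% of all genes, and so did the fit with a replicate block.

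None of the 9 genes for membrane processing of RAS, such as the farnesyltransferase subunits, was called, and their median log2 fold change was -0.20. Of 14 tested effectors, TIAM1, an exchange factor for RAC, rose from 17.0 and 15.5 CPM to 43.0 and 36.5 CPM (adjusted p = 0.0172, edgeR's quasi-likelihood test). RIN1, an exchange factor for RAB5, fell from 68.2 and 78.2 CPM to 44.5 and 39.1 CPM (adjusted p = 0.0470, edgeR's quasi-likelihood test). Its log2 fold change of -0.81 ran from -0.91 to -0.71 without single libraries, and it lost its call without any 1 of the 4. It also lost it with upper-quartile factors, library totals alone, no filter, and a filter at 1 CPM (adjusted p = 0.0508, 0.0617, 0.0647 and 0.0543, edgeR's quasi-likelihood test). The kinase gene ARAF had a log2 fold change of -0.12. Of 12 tested other RAS-family GTPases, RASL11B alone was called, falling from 8.95 and 9.34 CPM to 0.684 and 0.268 CPM (adjusted p = 0.00617, edgeR's quasi-likelihood test). RALA, RAP1A and RHEB had log2 fold changes of -0.47, -0.05 and 0.15. Without MCF10A replicate 1 none of the pathway genes was called, and without MCF10A replicate 2 GAB1, TIAM1 and RIN1 were not.

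**Figure D4:**
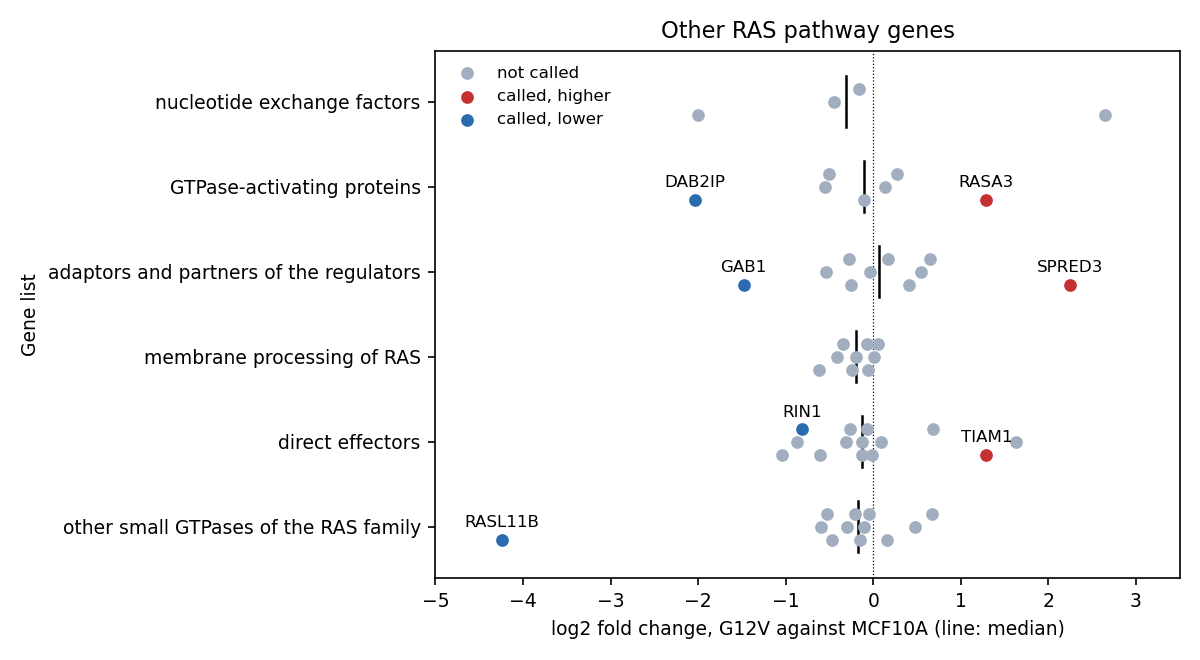
Log2 fold change between G12V and MCF10A of the 56 tested genes in 6 RAS pathway lists, with a line at each list's median and the 7 called genes named. Called genes run from RASL11B at -4.24 to SPRED3 at 2.25, and the medians of the lists lie between -0.31 and 0.07.

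The second comparison asked what 4 h of Nutlin-3a did in parental cells. In the main fit, which leaves out the pairing of libraries, none of the 8 genes was called, beside 0.170% of the 13529 genes tested. None had an unadjusted p under 0.05 in edgeR's quasi-likelihood test, beside 3.42% of all genes. DESeq2 and edgeR's exact test also called 0 of the 8, beside 0.714% and 0.621% of all genes. The treatments overlapped for all 8, while 8.07% of all genes did not overlap. Log2 fold changes ran from -0.06 (NRAS) to 0.19 (HRAS), with a median of 0.10 beside 0.0066 over all genes tested. With the replicate number as a block, which pairs the libraries, 0 of the 8 were called, beside 165 of the 13529 genes. The lowest unadjusted p of the 8 was then 0.0690 (HRAS, edgeR's quasi-likelihood test).

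HRAS had 86.8, 91.0 and 111 CPM in DMSO replicates 1 to 3 and 83.8, 111 and 134 CPM in Nutlin-3a replicates 1 to 3. Replicates 2 and 3 were higher after Nutlin-3a and replicate 1 slightly lower. The log2 fold change was 0.19, with a 95% confidence interval of -0.22 to 0.60. With the replicate number as a block it was 0.17 (SE 0.087, unadjusted p = 0.0690, adjusted p = 0.475, edgeR's quasi-likelihood test).

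NRAS had 153, 163 and 156 CPM in DMSO and 151, 158 and 141 CPM in Nutlin-3a, lower in 3 of 3 numbered pairs. MRAS had 7.85, 13.7 and 15.8 CPM in DMSO and 9.05, 15.9 and 17.2 CPM in Nutlin-3a, higher in 3 of 3 pairs. With the replicate block NRAS had a log2 fold change of -0.07 (95% confidence interval -0.23 to 0.09) and MRAS one of 0.18 (-0.06 to 0.42), and neither was called. RRAS2 had 76.9 to 101 CPM in DMSO and 72.6 to 103 CPM in Nutlin-3a libraries, and RRAS had 28.7 to 37.5 and 28.1 to 44.9 CPM.

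The regulators moved in different directions in different pairs. NF1 had 69.6, 98.2 and 102 CPM in DMSO and 120, 90.5 and 84.5 CPM in Nutlin-3a, so it was higher in pair 1 by 0.78 on the log2 scale and lower in pairs 2 and 3. SOS1 had 51.2, 59.0 and 64.2 CPM in DMSO and 71.3, 56.8 and 54.2 CPM in Nutlin-3a. RASA1 had 56.1, 56.8 and 50.9 CPM in DMSO and 66.6, 57.1 and 43.5 CPM in Nutlin-3a. All 3 were highest in Nutlin-3a replicate 1 among the Nutlin-3a libraries, and HRAS, RRAS, RRAS2 and MRAS were lowest there. Genes with long transcripts (over 6000 bases, 2155 genes) had a median log2 ratio of 0.18 in pair 1, -0.04 in pair 2 and -0.13 in pair 3, and those with short ones (under 1500 bases, 1372 genes) had -0.08, 0.14 and 0.18. This was read after the values were seen and its part in the pairs' directions was not tested. Of the 8 transcripts, NF1 (12373 bases) and SOS1 (8906 bases) are the longest and HRAS (1070 bases) and RRAS (986 bases) the shortest. RASA1 (4746 bases), NRAS (4326), MRAS (4098) and RRAS2 (2343) lie between. RASA1 and MRAS had log2 ratios of 0.25 and 0.20 in pair 1 and of -0.23 and 0.13 in pair 3. MRAS was lowest in replicate 1 of DMSO as well, at 7.85 CPM.

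**Figure D5:**
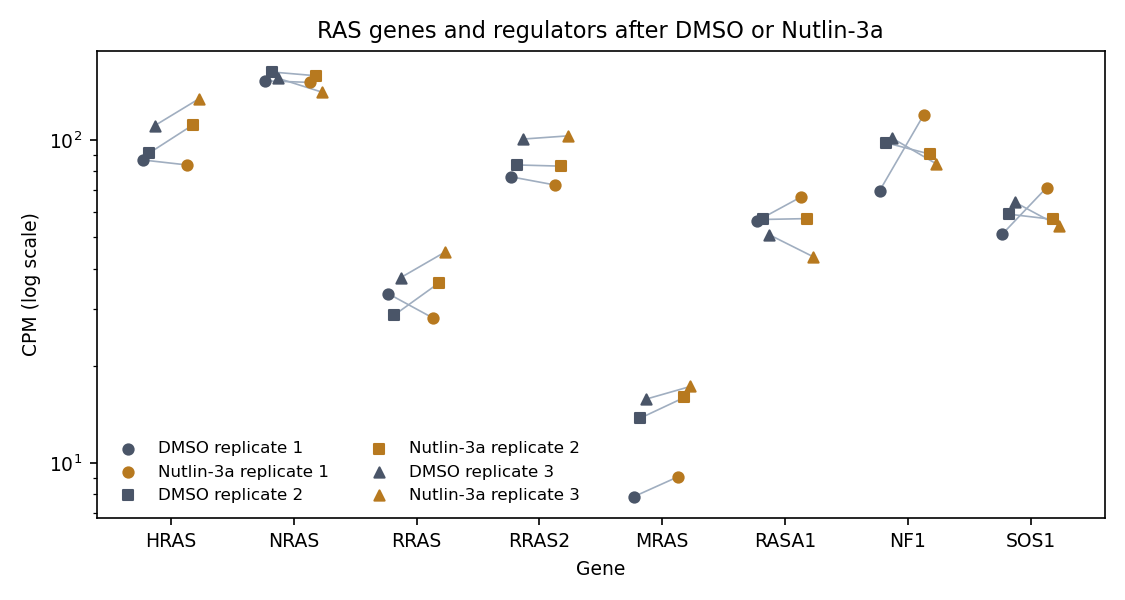
CPM of the 8 genes on a log scale in the 3 DMSO and 3 Nutlin-3a libraries, with lines joining libraries of the same replicate number. NF1, SOS1 and RASA1 rise in pair 1 and fall in pair 3, HRAS and RRAS do the reverse, and the treatments overlap for all 8 genes.

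Per length of the representative transcript, HRAS was again first, at 90.0 ± 12.1 CPM per kilobase (SD, n = 3) in DMSO and 103 ± 23.7 CPM per kilobase in Nutlin-3a. RRAS2, NRAS and RRAS followed at 37.2, 36.3 and 33.7 in DMSO and at 36.8, 34.7 and 36.9 in Nutlin-3a, with overlapping libraries. RASA1 (11.5 and 11.7), NF1 (7.26 and 7.94), SOS1 (6.53 and 6.82) and MRAS (3.04 and 3.44) came last. The libraries of NF1 and SOS1 overlapped in both groups, and those of RASA1 and NF1 in Nutlin-3a. HRAS made up 43.8 to 46.2% of the summed level of the 5 GTPases in DMSO and 44.8 to 49.9% in Nutlin-3a. With the length of all exons the shares were 28.6 to 31.0% and 29.4 to 34.3%. HRAS then stood at 39.6 CPM per kilobase in DMSO, where its libraries overlapped those of NRAS (36.3), and at 45.2 in Nutlin-3a, where they also overlapped those of NRAS (34.7). NRAS then lay above RRAS2 without overlap in both groups, and above RRAS without overlap in DMSO. Both tables were normalized separately, so levels are set side by side only within a table. The row of each of the 8 genes in this table names a single transcript, which is the representative one only for NRAS and RRAS. Whether the counts cover the whole gene is not given, so the levels per length are uncertain.

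Of the 68 genes of the wider set, 52 could be tested after Nutlin-3a and 0 were called, with a median log2 fold change of -0.00087. By unadjusted p under 0.05 in edgeR's quasi-likelihood test there was 1, RAP2B, beside 3.42% of all genes. It had 80.4 CPM in DMSO and 99.0 CPM in Nutlin-3a, with an adjusted p of 0.987 in the same test.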

How the data were processed

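Poly(A)-selected RNA of 10 libraries was sequenced. Per the labels and the study's methods, the authors aligned reads with TopHat to hg19 and counted them per gene with HTSeq, and the deposited values are raw counts. The annotation and the strand setting are not given in the sources used here. Each table was fitted alone with edgeR 4.0.16 (R 4.3.3, limma 3.58.1): filterByExpr, TMM, the quasi-likelihood F-test and Benjamini-Hochberg adjustment over all tested genes. Genes were called at an adjusted p under 0.05 with a log2 fold change beyond 0.5 in either direction. CPM use TMM-scaled library sizes, the prior count was 0.125, and intervals are 95%. The fits were run on simulated counts with the same dispersion for every gene and no replicate effect. Such counts cannot show how the fits behave under the replicate differences of these libraries.

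The members and lists were chosen with earlier results of these data known. Named genes are the 8 members, the called genes of each list (at most 3), genes overlapping a member, and the neighbours and nearest profiles of HRAS. RASGRP1, SOS2, GRB2, ARAF, RALA, RAP1A, RHEB and RAP2B were named after their values were seen. No libraries were identical. The labels call replicates biological. Spreadsheet conversion had made dates of 28 symbols in both tables. In the Nutlin-3a experiment, deviations of same-numbered libraries correlated at 0.62, 0.60 and 0.64 and others at -0.47 to -0.19, so the numbers pair them. An exact permutation test cannot go below 0.333 with 2 against 2 libraries or 0.1 with 3 against 3. Proteins were translated and aligned with Biopython 1.88, and some items are not reported here. Python 3.11.15, pandas 2.3.3, numpy 2.4.6 and matplotlib 3.10.9 were used. The alternatives tried included DESeq2 1.42.0, the exact test of edgeR, other scalings, filters, thresholds and prior counts, a replicate block and the omission of each library.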

Additional observations from a re-analysis of the deposited data

How the results depend on the processing

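For G12V against MCF10A, the call of HRAS held under every alternative run except the omission of MCF10A replicate 1 (log2 fold change 3.15, adjusted p = 0.0775 by edgeR), and without single libraries its log2 fold change ran from 2.89 to 3.19. Each omission leaves 1 library in a group of 2, assumed to vary like the other group. Of the 8 genes, 2 were called by edgeR's exact test and 2 with a fold change over 1.3 and no adjustment of p (HRAS and RRAS2 both times), and 0 to 2 without single libraries. Of the pathway genes, 7 in the main test, the same alternatives gave 12, 17 and 0 to 8, and of all genes, 1575 in the main test, 2536, 3676 and 0 to 2129. DESeq2 called 2307. Whether same-numbered libraries of G12V and MCF10A belong together was not given in the sources used here. Their deviations correlated at 0.49, a value that is the same for both pairs by construction with 2 libraries per group. With a replicate block 3 of the 8 (HRAS higher, RRAS2 and RASA1 lower), 20 pathway genes and 4158 genes were called.

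For Nutlin-3a against DMSO, no alternative called any of the 8 or of the pathway genes, pairing by the replicate block included. Calls over all genes, 23 in the main test, were 91 by DESeq2, 84 by edgeR's exact test, 99 with no filter, 165 with the replicate block, 332 with a fold change over 1.3 and no adjustment of p, and 7 to 11 without single libraries. The log2 fold change of RASA1 turned to -0.0036 with library totals alone.

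Without single libraries the direction of some small differences turned. In G12V cells this was so for NRAS (-0.016 to 0.13), RRAS (-0.47 to 0.58) and NF1 (-0.17 to 0.23). After Nutlin-3a it was so for RRAS (-0.051 to 0.29), RRAS2 (-0.17 to 0.10), MRAS (-0.068 to 0.42), RASA1 (-0.12 to 0.18), NF1 (-0.037 to 0.23) and SOS1 (-0.066 to 0.14). The cause was not tested. Counts ran lowest for MRAS, at 80 to 182 in the G12V comparison, so counting error weighs most there.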
